A study of Mus musculus with 11 samples.

Results

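The genes described here are 10 genes that cells use to hold back or relay signalling through the kinase ERK: the phosphatase genes Dusp4, Dusp5 and Dusp6, the Sprouty genes Spry1, Spry2 and Spry4, the Spred genes Spred1 and Spred2, and the ETS transcription factor genes Etv4 and Etv5. They were picked by name from 53700 genes in the deposited count table, through their Ensembl gene IDs. The rule used no values, but the choice was made with earlier results of these data known. All 10 had a row. Of these, 9 passed a filter on low counts and were tested together with 16639 genes in all, while Etv4 did not pass and was only described.

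ERK is the last kinase of a relay in which an activated receptor switches on RAS, RAF and MEK in turn, and FLT3 and KIT are the receptors that most often start it in early blood cells. Active ERK raises transcription of its own brakes. DUSP4 and DUSP5 remove the activating phosphates from ERK in the nucleus and DUSP6 does so in the cytoplasm, Sprouty and SPRED proteins act at the step from receptor to RAS and RAF, and ETV4 and ETV5 are transcription factors that ERK signalling induces. The transcripts of these genes are therefore widely used as a readout of ERK activity, among other settings when a receptor kinase is inhibited. Part of the induction runs through Capicua (CIC), a repressor that binds octamers such as TGAATGAA and that ERK signalling inactivates.

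RNA was sequenced in bulk from short-term haematopoietic stem cells (ST-HSC), an early blood progenitor, sorted from the bone marrow of C57BL/6j mice. Each host carried a transplanted acute myeloid leukaemia with an internal tandem duplication in Flt3 (Flt3-ITD) and a Tet2 knockout. The 11 libraries formed 4 groups. The 3 KO treated libraries (257, 263 and 276) came from hosts labelled CXCL12 KO (titled Cre_pos) that were given cytarabine, doxorubicin and the FLT3 inhibitor quizartinib, and the 3 WT treated libraries (252, 262 and 266) came from CXCL12 WT hosts (titled Cre_neg) given the same drugs. The 2 KO vehicle libraries (249 and 275) and the 3 WT vehicle libraries (240, 253 and 265) came from the same kinds of hosts given vehicle. The driver of Cre, the hosts' age, the dose and the time of sampling are not stated in the sources used here. The deletion is placed in the host's niche, so an effect of Cre itself cannot be told apart from that of the deletion, and the drugs were given together, so quizartinib cannot be told apart from chemotherapy. Separate animals behind the libraries are not stated, so each p-value sets a difference against the spread of these libraries, which may be technical. Whether the sorted cells came from the leukaemia or the host was not tested.

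Gene counts ran from 8.13 M (WT vehicle 265) to 31.1 M (WT treated 252) per library. Every treated library held at least 22.4 M and every vehicle library at most 22.2 M, so treatment and depth cannot be told apart. Transcripts of the progenitor surface genes Kit, Cd34, Flt3 and Cd48 were counted in all 11 libraries, but the stem cell genes Procr and Hlf had 1 count each in WT vehicle 253, and Slamf1 had none in KO treated 257 and the 3 WT vehicle libraries. Genes of granulocytes were counted in every library, with 15 of 15 measured and summed levels from 11138 CPM (KO treated 263) to 166996 CPM (WT treated 266). The 16 measured red-cell genes summed to 23411, 48242 and 112737 CPM (read counts scaled to the library's size) in KO treated 263, 257 and 276, against 578 to 840 CPM in WT treated libraries. They summed to 724 and 18510 CPM in KO vehicle libraries, against 85.6 to 1314 CPM in WT vehicle libraries. Across genes, the deviation of each library from the average of the 11 was also related to exon length: the Spearman rho was -0.28 to -0.37 for WT treated libraries, -0.21 for KO treated 257, and above 0 for the other 7. In bulk RNA, fewer cells of a type and less RNA per cell cannot be told apart.

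RefSeq promoter windows (assembly GRCm38.p6), taken by symbol, were read for 7 of the 10 genes, with 8 start sites, since Etv5 has 2. No window was read for Dusp4, Spry4 or Etv4, so the motif search does not cover these genes. That a window was not read does not show that RefSeq lacks one. Each window was read over the 250 bases before the start site, and the submitters' processing notes name another build, GRCm39, for the counts. The 3 windows that hold the CIC core TGAATG, or CATTCA for the other strand, are printed here because they carry the one motif searched that was found in any of the 8. They run 5′ to 3′ along the gene's strand, end at the base before the start site, and have the matches in capitals.
Dusp5, chr19:53528895-53529144, plus strand: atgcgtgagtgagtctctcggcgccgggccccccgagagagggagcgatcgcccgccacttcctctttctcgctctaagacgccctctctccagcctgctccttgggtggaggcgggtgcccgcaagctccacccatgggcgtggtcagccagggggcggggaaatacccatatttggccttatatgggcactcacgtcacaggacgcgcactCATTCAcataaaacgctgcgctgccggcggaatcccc
Dusp6, chr10:99262981-99263230, plus strand: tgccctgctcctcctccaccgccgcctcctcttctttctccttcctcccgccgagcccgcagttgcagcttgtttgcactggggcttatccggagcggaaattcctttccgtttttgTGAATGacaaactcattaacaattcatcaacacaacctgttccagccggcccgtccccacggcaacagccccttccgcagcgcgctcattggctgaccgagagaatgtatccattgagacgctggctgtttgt
Etv5, second start site, chr16:22438369-22438618, minus strand: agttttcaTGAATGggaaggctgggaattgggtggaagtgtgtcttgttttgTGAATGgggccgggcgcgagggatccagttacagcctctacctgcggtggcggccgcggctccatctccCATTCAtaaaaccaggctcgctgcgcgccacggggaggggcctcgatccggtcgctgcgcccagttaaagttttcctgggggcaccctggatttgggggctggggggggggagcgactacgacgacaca

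Counted back from the start site, the match lay at bases -37 to -32 in Dusp5 and at bases -133 to -128 in Dusp6. The second Etv5 window held 3 matches, at bases -242 to -237, -198 to -193 and -129 to -124. The 20 bases after this second start site were not found in a GENCODE transcript, while those after the Dusp5, Dusp6 and first Etv5 start sites were. Among all 32851 RefSeq mouse promoter windows of the same length, 10.9% held the core at least once on either strand and 0.131% held it at least 3 times. Of full CIC octamers, only TGAATGAA and TGAATGGA, which hold the core, were searched. They were in 1.08% and 1.01% of all windows and in none of the 8. Octamers with another second base were not searched, so nothing is said of those. The ETS core CCGGAA (12.03% of all windows) and the spaced STAT5 pair TTCNNNGAA (7.02%) were also in none of the 8. These are matches of letters in short windows and say nothing of binding.

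Per kilobase of exon, Dusp5 was the highest of the 10 genes, with a median over the 11 libraries of 7.23 RPKM (CPM per kilobase of exon). Dusp6 followed at a median of 3.96 RPKM, Spred1 at 1.92 RPKM, Spred2 at 1.29 RPKM, Etv5 at 0.928 RPKM, Spry2 at 0.800 RPKM and Spry1 at 0.625 RPKM. Dusp4 had a median of 0.0707 RPKM, and Spry4 and Etv4 had a median of 0. Neighbours in this order overlapped over the libraries, and the order was not tested. By mean log2 CPM, the 9 genes tested lay between percentile 1.11 (Spry4) and percentile 59.6 (Dusp5) of all genes tested, so most of them were of low to middling abundance in these cells. Summed over the libraries, the counts behind these levels were 4845 for Spred1, 4465 for Dusp5, 3395 for Dusp6, 1644 for Etv5, 1355 for Spred2, 632 for Spry1, 495 for Spry2, 158 for Dusp4, 41 for Spry4 and 13 for Etv4. The last 3 are too thinly counted for any statement on a single library, since 3 counts are worth 0.0879 CPM in the library with the most scaled counts (263) and 0.369 CPM in that with the fewest (265).

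**Figure D1:**
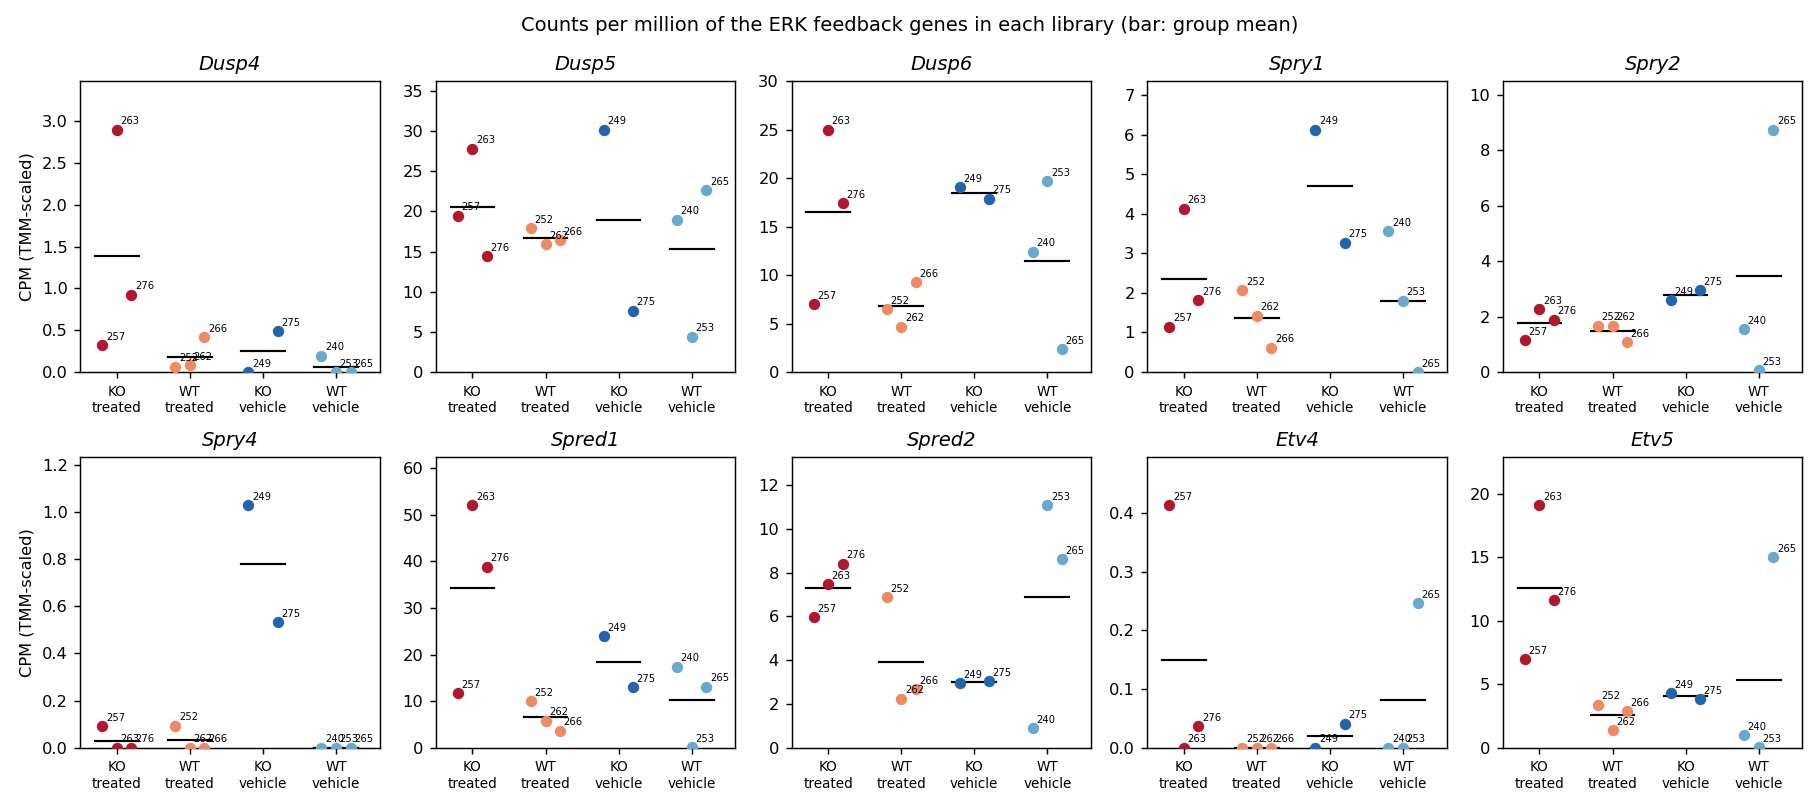
CPM of each gene (linear axis from 0, on its own scale for each gene) in the 11 libraries, with KO treated, WT treated, KO vehicle and WT vehicle libraries side by side, the library number beside each point and the group mean as a bar. Spred1 and Etv5 were higher in every KO treated than in every WT treated library, and Spry4, which passed the filter only through them, had more than 3 counts only in the KO vehicle libraries.

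Dusp6, the cytoplasmic ERK phosphatase, was at 6.99 CPM in KO treated 257, 25.0 CPM in 263 and 17.4 CPM in 276, against 6.47, 4.68 and 9.29 CPM in WT treated 252, 262 and 266. In the vehicle groups it was at 19.1 and 17.9 CPM in KO vehicle 249 and 275, against 12.4, 19.7 and 2.34 CPM in WT vehicle 240, 253 and 265. It was thus low in all 3 WT treated libraries but lower still in WT vehicle 265, and KO treated 257 lay within the WT treated range. Under treatment the KO libraries averaged 16.5 CPM ± 9.06 and the WT libraries 6.81 CPM ± 2.33 (SD, n = 3 each), a log2 fold change of 1.28 ± 0.75 (SE; edgeR, adjusted p = 0.579). Within the WT niche, treated libraries averaged 6.81 CPM and vehicle libraries 11.5 CPM ± 8.72 (n = 3), a log2 fold change of -0.76 ± 0.74 with a 95% interval of -2.39 to 0.87. Within the KO niche, treated libraries averaged 16.5 CPM and vehicle libraries 18.5 CPM ± 0.867 (n = 2), a log2 fold change of -0.16 ± 0.82 with a 95% interval of -1.96 to 1.63. Neither interval leaves 0, and the 2 treatment effects differed by 0.59 ± 1.11, with an edgeR adjusted p of 0.952.

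Dusp5, a nuclear phosphatase of ERK, was at 19.5, 27.8 and 14.4 CPM in the KO treated libraries, against 17.9, 15.9 and 16.4 CPM in the WT treated ones. It was at 30.2 and 7.65 CPM in the KO vehicle libraries, against 19.0, 4.37 and 22.7 CPM in the WT vehicle ones. KO vehicle 249 was the highest of the 11 libraries and KO vehicle 275 was above WT vehicle 253 alone, and all 4 groups overlapped. Its log2 fold change was at most 0.31 in each of the 4 comparisons, with SE from 0.65 to 0.73. This was the most precisely measured of the 9 genes, and in treated hosts its 95% interval for the KO over the WT niche ran from -1.13 to 1.73.

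Dusp4, another nuclear ERK phosphatase, had 7, 99 and 25 counts in the KO treated libraries, against 2, 2 and 8 counts in the WT treated ones. There were 0 and 12 counts in the KO vehicle libraries, against 3, 0 and 0 counts in the WT vehicle ones. KO treated 263 alone held 99 of the 158 counts, and Dusp4 reached the level set by the filter only in KO treated 263 and 276 and KO vehicle 275, so it passed through libraries of the KO niche. Summed per group, the KO treated libraries were at 1.58 CPM and the WT treated ones at 0.157 CPM, a ratio with a 95% interval of 5.56 to 19.9 that covers counting error only, while the edgeR log2 fold change, which takes the spread between libraries into account, was 2.89 ± 1.78 with an adjusted p of 0.598. Without KO treated 263 that log2 fold change was 1.72.

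Spry1, an inhibitor of signalling from receptor kinases, was at 1.15, 4.13 and 1.82 CPM in the KO treated libraries, against 2.07, 1.42 and 0.620 CPM in the WT treated ones. It was at 6.13 and 3.27 CPM in the KO vehicle libraries, against 3.55, 1.81 and 0 CPM in the WT vehicle ones. All 4 comparisons overlapped, with edgeR log2 fold changes between -0.99 and 1.38 and SE of at least 1.27. Spry1 overlaps the annotated gene Gm42922 on the other strand, and Dusp5 likewise overlaps AC137853.2; the library kit does not keep the strand, so reads of such pairs cannot be told apart.

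Spry2, a close relative of Spry1 with the same role, was at 1.15, 2.26 and 1.89 CPM in the KO treated libraries, below both KO vehicle libraries at 2.60 and 2.95 CPM. In the WT niche it was at 1.67, 1.67 and 1.08 CPM in treated libraries, against 1.55, 0.0583 and 8.74 CPM in vehicle libraries. WT vehicle 265, the shallowest library, had the highest level and WT vehicle 253 the lowest. The edgeR log2 fold change under treatment was -0.65 ± 1.37 in the KO niche and -1.21 ± 1.27 in the WT niche (adjusted p = 1 and 0.648).

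Spry4, the third Sprouty gene, was close to absent outside one group. It had 23 counts in KO vehicle 249 and 13 counts in KO vehicle 275, against 0 counts in each of the 3 WT vehicle libraries. In treated hosts it had 2 counts in KO treated 257 and 3 counts in WT treated 252, and 0 counts in the other 4. Set against a floor of 3 counts over the WT vehicle group, the summed level of the KO vehicle libraries was 10.5-fold that floor. Within the KO niche, the summed CPM of the treated libraries was 0.0314 times that of the vehicle libraries (95% interval 0.00366 to 0.122, counting error only). In edgeR the treated over vehicle log2 fold change in the KO niche was -4.54 ± 2.12, with an unadjusted p of 0.0590 and an adjusted p of 1. For KO over WT vehicle hosts, edgeR gave an unadjusted p of 0.0236 and an adjusted p of 0.729. Spry4 passed the filter on low counts only through the KO vehicle group, so it had to be higher there among the genes tested, and these p-values are no support for that difference. Red-cell genes summed to 724 and 18510 CPM in KO vehicle 249 and 275, and their part in the Spry4 counts was not tested.

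Spred1, which with neurofibromin holds RAS in its inactive state, had the smallest p of the 9 genes for the niche in treated hosts. It was at 11.7, 52.0 and 38.8 CPM in the KO treated libraries, against 9.99, 5.82 and 3.67 CPM in the WT treated ones. All KO treated values exceeded all WT treated values, but 257 (11.7 CPM) and 252 (9.99 CPM) were close. The means were 34.2 CPM ± 20.6 with the KO niche and 6.49 CPM ± 3.22 with the WT niche (SD, n = 3 each), a log2 fold change of 2.39 ± 1.17 with an unadjusted p of 0.0637 and an edgeR adjusted p of 0.498. In vehicle hosts it was at 23.9 and 13.01 CPM in KO libraries, against 17.4, 0.0583 and 13.1 CPM in WT libraries. WT vehicle 253 held a single count of Spred1, while the other 4 vehicle libraries lay within the KO treated range and above all WT treated libraries.

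Spred2, a relative of Spred1 with the same role, was at 5.98, 7.47 and 8.41 CPM in the KO treated libraries, above both KO vehicle libraries at 2.95 and 3.03 CPM. In the WT niche it was at 6.87, 2.24 and 2.68 CPM in treated libraries, against 0.905, 11.1 and 8.62 CPM in vehicle libraries. The KO treated and KO vehicle libraries did not overlap, while the WT groups did. The edgeR log2 fold change under treatment was 1.28 ± 1.05 in the KO niche and -0.80 ± 0.91 in the WT niche (adjusted p = 1 and 0.678). The test of the difference between these 2 effects gave 2.08 ± 1.38, with an adjusted p of 0.798.

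Etv5, the better expressed of the 2 ETS factors, was at 6.99, 19.1 and 11.6 CPM in the KO treated libraries, against 3.40, 1.38 and 2.89 CPM in the WT treated ones. It was at 4.30 and 3.81 CPM in the KO vehicle libraries, against 0.969, 0.0583 and 15.0 CPM in the WT vehicle ones. The KO treated libraries were thus above every WT treated and every KO vehicle library, and the WT vehicle libraries spread too widely to set them apart from any other group. The mean was 12.6 CPM ± 6.11 with the KO niche and 2.56 CPM ± 1.05 with the WT niche (SD, n = 3 each), which is 2.29 ± 1.33 on the log2 scale (adjusted p = 0.572 in edgeR). Within the KO niche, treated libraries averaged 12.6 CPM and vehicle libraries 4.05 CPM ± 0.347 (n = 2), a log2 fold change of 1.63 ± 1.50 with an adjusted p of 1.

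Etv4, its close relative, had 9, 0 and 1 counts in the KO treated libraries and none in the WT treated ones. It had 0 and 1 counts in the KO vehicle libraries, against 0, 0 and 2 counts in the WT vehicle ones. Set against a floor of 3 counts over the WT treated group, the summed level of the KO treated libraries was 3.07-fold that floor. Of their 10 counts, 9 came from 257 and none from 263, so no difference between the groups is read from this. KO treated 257 had the highest share of reads outside annotated genes, 30.4% of all reads.

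**Figure D2:**
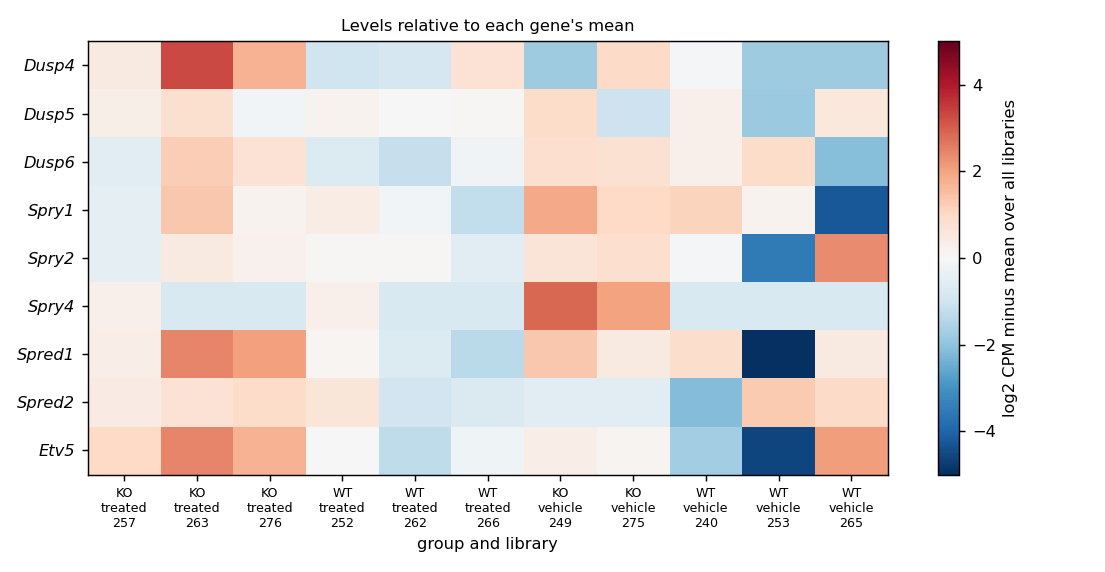
Log2 CPM of the 9 genes that passed the filter, as the difference from the gene's mean over the 11 libraries (colour), with libraries as columns in the order KO treated, WT treated, KO vehicle and WT vehicle. WT vehicle 253 is far below the mean for Spred1 (0.0583 CPM), Etv5 (0.0583 CPM) and Spry2 (0.0583 CPM), and KO treated 263 is above the mean for Spred1 (52.0 CPM), Etv5 (19.1 CPM) and Dusp6 (25.0 CPM).

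The treatment comparison asks whether these transcripts were lower after chemotherapy with a FLT3 inhibitor. In the WT niche, the fitted log2 fold change was negative for 6 of the 9 genes tested (7828 of all 16639) and positive for 3 (8753). Its median over the 9 was -0.64, against a median of 0.09 over all genes tested. Without Dusp4 and Spry4, which passed the filter on low counts only through KO libraries (a choice made after seeing the data), 6 of the other 7 were negative, with a median of -0.76. None passed edgeR's test at an adjusted p under 0.05, at which 0% of all genes passed. None had an unadjusted p under 0.05 either, against 18.2% of all genes, and the treated and vehicle libraries overlapped for all 9, whereas 17.5% of all genes did not overlap with treated higher and 10.1% with treated lower. Limma voom also passed none of the 9, and DESeq2, which passed 1069 genes here, passed none of the 8 to which it gave an adjusted p (Spry4 had none). In the KO niche, 5 of the 9 were positive (9338 of all 16639) and 4 negative (7277), with a median of 0.12 for the 9 and for all genes alike. Without Dusp4 and Spry4, 4 of the other 7 were positive and 3 negative, also with a median of 0.12. None of the 9 passed (0% of all genes) or had an unadjusted p under 0.05 (3.68%). Spred2 and Etv5 did not overlap with treated higher (12.3% of all genes), and Spry2 did not overlap with treated lower (10.1%). Spry4 did not overlap with treated lower either, but it had passed the filter only through the KO vehicle libraries, so nothing is read from its direction. For 5 genes the direction in the WT niche rests on a single vehicle library. On the log2 scale, Etv5 turned to 2.40 and Spry2 to 0.96 without WT vehicle 265, Spry1 turned to 0.56 and Spred1 to 0.0065 without WT vehicle 240, and Dusp5 turned to -0.31 without WT vehicle 253. The intervals in the WT niche were wide: the lower bound nearest to 0 was -1.31 (Dusp5) and the upper bound nearest to 0 was 0.87 (Dusp6).

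The niche comparison in treated hosts is the one named in the title of the series, which links loss of CXCL12 to the response to therapy. By the fitted log2 fold change of KO over WT, 8 of the 9 genes tested were higher (8961 of all 16639). Spry4, with 2 and 3 counts, was lower. The median of the 9 was 0.89, against 0.10 over all genes tested. Dusp4 passed the filter only through KO libraries, so its direction is no result; without it and Spry4, all 7 other genes tested were higher, also with a median of 0.89. The signs of these 7 come from the same libraries and are not separate observations. The largest of the 7 were Spred1, Etv5 and Dusp6. None passed edgeR's test (0% of all genes) or had an unadjusted p under 0.05 (10.6%). Spred1 and Etv5 did not overlap with KO higher, against 9.71% of all genes, and no member did with KO lower (9.56%). Limma voom with sample quality weights, which gives less weight to libraries that lie far from their group, passed Etv5 at 3.04 (adjusted p = 0.00418), Dusp6 at 1.95 (adjusted p = 0.00597) and Spred1 at 2.82 (adjusted p = 0.00615), all higher with the KO niche. It also passed Dusp4, at 4.12 (adjusted p = 0.0108), which is not counted with these because of how it passed the filter. It passed 26.3% of all genes in that comparison, 14.2% with KO higher. DESeq2 passed 1.36% of all genes (1.21% with KO higher). It gave an adjusted p to only 3 of the 9, Dusp5, Dusp6 and Spred1, and none of these passed; the other 6, Etv5 among them with a log2 fold change of 2.26 ± 1.17, had no adjusted p and could not pass. Without KO treated 257, edgeR passed 9.04% of all genes and still none of the 9, with Spred1 at 2.80 (adjusted p = 0.247) and Dusp6 at 1.64 (adjusted p = 0.260).

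**Figure D3:**
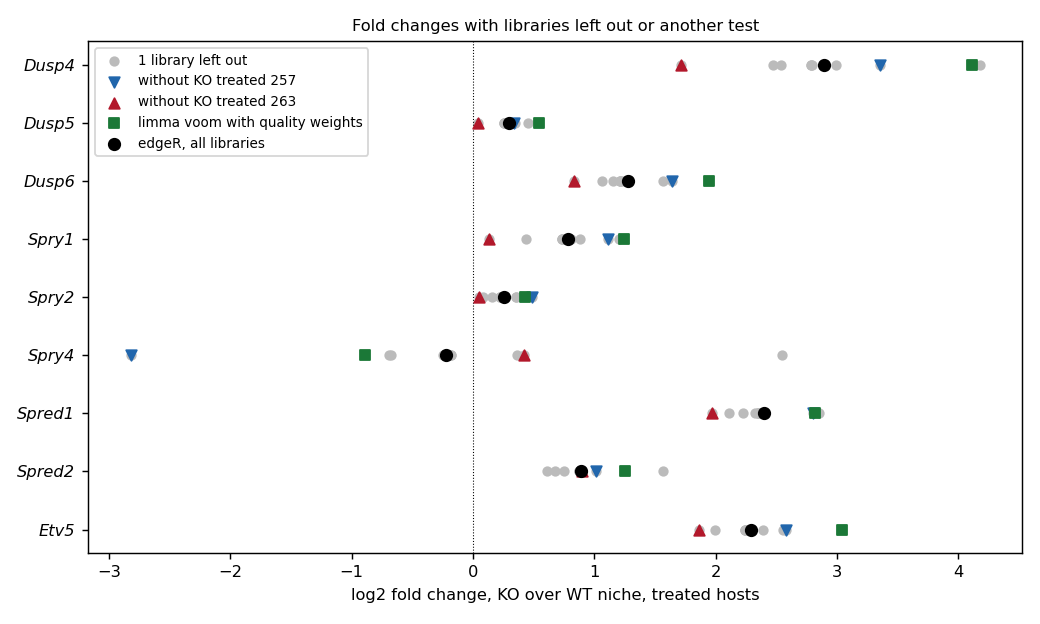
Log2 fold change of the KO over the WT niche in treated hosts (horizontal axis) for the 9 genes, from edgeR on all 11 libraries (black), with 1 library left out (grey, with KO treated 257 and 263 marked) and from limma voom with quality weights (green). Spred1 stays between 1.97 and 2.85 and Etv5 between 1.87 and 2.58 whichever library is left out, while Spry4 changes sign.

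The 3 KO treated libraries also held more red-cell transcripts than any other library, as given above, and 263, with the highest Spred1, Etv5 and Dusp6 of the 3, had the lowest red-cell sum of them (23411 CPM). The part of red-cell transcripts in these differences was not tested. With each library's trend with transcript length removed, the log2 fold change of the KO over the WT niche was 1.87 for Spred1 (6784 bases of exon), 2.02 for Etv5 (4103 bases) and 1.26 for Dusp6 (3132 bases), against 2.39, 2.29 and 1.28 before.

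In vehicle hosts, 6 of the 9 genes were positive for the KO over the WT niche (8096 of all 16639) and 3 negative (8316). The median of the 9 was 0.68, against 0 over all genes tested. Without Dusp4 and Spry4, 4 of the other 7 were positive and 3 negative, with a median of 0.31. None passed edgeR's test (0% of all genes). None of these 7 had an unadjusted p under 0.05 (6.78% of all genes) or did not overlap with KO higher (13.2%) or lower (7.47%). Spry4 met both with KO higher, which the filter had fixed, so it is not set against those shares. The KO vehicle group has 2 libraries, and the WT vehicle group spreads widely: Spry2, Spred1 and Etv5 each had 1 count in WT vehicle 253, and Spry2 and Etv5 had their highest vehicle levels in WT vehicle 265. Without both of these, the WT vehicle group was the single library 240, assumed to vary like the other groups, and the log2 fold change was 2.16 for Etv5 and 0.94 for Spry2, against -0.39 and -0.30 with all libraries. The treated and vehicle comparisons of one niche share libraries with the niche comparisons, so they are no independent support for each other. The difference of the niche effect between treated and vehicle hosts passed the test for none of the 9 (0% of all genes), and none had an unadjusted p under 0.05 (6.31%). The mean treatment effect over both niches likewise passed for none (0% of all genes), with none at an unadjusted p under 0.05 (16%).

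**Figure D4:**
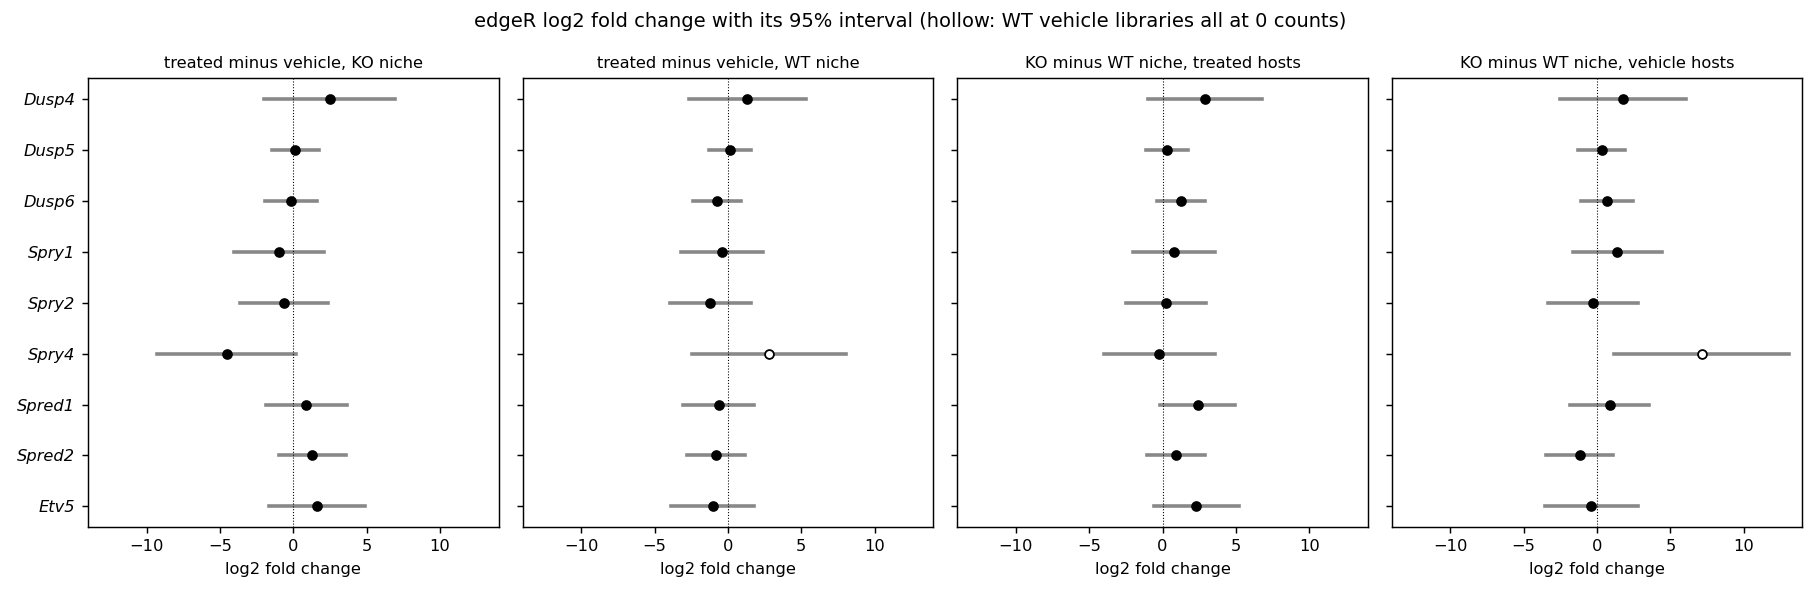
Log2 fold changes from edgeR (points) with 95% intervals (bars) for the 9 genes in the 4 comparisons, treated over vehicle within each niche and KO over WT niche within each treatment. All intervals reach 0 except that of Spry4 for KO over WT in vehicle hosts. In that comparison and for treatment in the WT niche, the Spry4 estimates (hollow points) depend on the prior count. This is because the WT vehicle libraries held none of its reads.

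Over the 11 libraries, the 36 pairs among the 9 genes had a median Pearson r of 0.14 (log2 CPM), and 23 pairs were positive. These are descriptions over libraries that share group, depth and the marker differences given above. Spred1 and Etv5 had the highest r, 0.85 (Spearman 0.71), which fell to 0.41 without WT vehicle 253 and KO treated 263. Dusp6 and Spry1 had an r of 0.81 (Spearman 0.68), which fell to 0.60 without WT vehicle 265 and WT treated 262. The genes most like Etv5 among 8110 expressed genes were Fancm, a DNA repair helicase gene (r = 0.98, and 0.94 without WT vehicle 253 and KO treated 263), then Dhx36, Gtpbp2, Fam117a and Tle4 (r = 0.93, 0.92, 0.92 and 0.91). Those most like Spred1 were Zfp280d, Avl9, Kdm2b, Scaf8 and Zfp91 (r = 0.98, 0.98, 0.98, 0.97 and 0.97). Those most like Dusp5 were Peak1, Rab11fip5, Ppp3cc, Dnttip2 and Mapk8ip3 (r = 0.91, 0.91, 0.90, 0.90 and 0.90), which fell to between 0.58 and 0.76 without WT vehicle 253 and KO vehicle 275.

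Around these genes, 5 further lists of the pathway were counted, and no gene of any of them passed edgeR's test in any of the 6 comparisons. Over all genes tested, treated and vehicle libraries did not overlap with treated lower for 10.1% in each niche. With treated higher in the WT niche, the share was 17.5%. KO and WT libraries did not overlap with KO higher for 9.71% in treated and 13.2% in vehicle hosts. Of the receptor genes that start the relay, Flt3 itself, the target of quizartinib, was at 102, 222 and 68.5 CPM in KO treated libraries, against 255, 190 and 113 CPM in WT treated ones, and at 174 and 72.9 CPM in KO vehicle libraries, against 340, 70.6 and 148 CPM in WT vehicle ones. All groups overlapped, and its treated over vehicle log2 fold change was 0.08 ± 0.68 in the KO and -0.0017 ± 0.60 in the WT niche. Kit, the receptor of stem cell factor, was at 20.5, 243 and 210 CPM in KO treated libraries, against 50.7, 37.7 and 20.5 CPM in WT treated ones. KO treated 257 lay at the foot of the WT range, and the log2 fold change of KO over WT was 2.12 ± 0.68 (unadjusted p = 0.00915, adjusted p = 0.406). In vehicle hosts Kit was at 159 and 167 CPM with the KO niche, above 79.0, 73.9 and 102 CPM with the WT niche. Csf3r, the receptor of G-CSF, was at 28.3, 33.3 and 57.8 CPM in WT treated libraries, below all WT vehicle libraries at 78.4, 297 and 111 CPM, a log2 fold change of -2.03 ± 0.60 (adjusted p = 0.177). Csf1r, the receptor of the macrophage factor M-CSF, had a log2 fold change of -2.16 ± 0.81 there (adjusted p = 0.209). Of the 9 receptors tested, 2 had an unadjusted p under 0.05 in that comparison, both lower, against 18.2% of all genes in either direction.

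Of the 30 genes of the cascade from adaptors to ERK and its substrates, 23 had a negative log2 fold change under treatment in the WT niche (7828 of all 16639 genes tested). The median of the 30 was -0.52, against 0.09 over all genes. At an unadjusted p under 0.05, 7 were lower and 1 higher, against 18.2% of all genes. In the KO niche 16 were negative and 14 positive, with a median of -0.04 (0.12 over all genes). Rps6ka1, an ERK-activated kinase, was at 105, 126 and 150 CPM in WT treated libraries, against 273, 532 and 446 CPM in WT vehicle ones, a log2 fold change of -1.71 ± 0.44 with an unadjusted p of 0.00219 and an adjusted p of 0.172. In the KO niche it was at 99.8, 189 and 352 CPM in treated libraries, against 397 and 499 CPM in vehicle ones. The groups did not overlap in either niche (10.1% of all genes with treated lower in each). Ksr1 went the other way, at 2.63 to 9.88 CPM in KO treated and 3.61 to 6.68 CPM in WT treated libraries. It was at 0.573 to 1.83 CPM in KO vehicle and 0.233 to 1.16 CPM in WT vehicle ones. Its mean treatment effect was 2.75 ± 0.80 (edgeR adjusted p = 0.251). Elk3 had 0.84 ± 0.37 under treatment in the KO niche and the smallest interaction p of the 30 (edgeR unadjusted p = 0.00854, adjusted p = 0.767). Sos2, an activator of RAS, had -1.68 ± 0.50 in the WT niche (adjusted p = 0.177). It was at 14.2, 34.7 and 34.3 CPM in KO treated libraries, against 13.1, 12.0 and 4.90 CPM in WT treated ones, with no overlap (9.71% of all genes with KO higher). Rasa1, which switches RAS off, was at 42.3, 63.9 and 46.3 CPM in KO treated libraries, against 27.6, 24.2 and 21.2 CPM in WT treated ones. In vehicle hosts it was at 45.0 and 46.4 CPM in KO libraries, against 25.6, 21.4 and 26.2 CPM in WT ones, so all 5 KO libraries were above all 6 WT ones. KO higher without overlap held for 9.71% of all genes in treated and 13.2% in vehicle hosts. The log2 fold changes of Rasa1 were 1.06 ± 0.31 and 0.91 ± 0.34 (edgeR adjusted p = 0.383 and 0.729). It was named for having the smallest p of the 30 genes in both niche comparisons. In treated hosts 22 of the 30 genes were positive for KO over WT (8961 of all 16639 genes tested). Of the 30, 5 had an unadjusted edgeR p under 0.05, all higher (10.6% of all genes in either direction). The kinase gene Mapk3 and the repressor gene Cic had log2 fold changes between -0.65 and 0.33 in all 4 comparisons, with SE from 0.32 to 0.50.

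Of the 21 other transcripts known to follow ERK activity, 19 were tested. Fos, an immediate early gene, was at 251, 144 and 248 CPM in WT treated libraries, below all WT vehicle libraries at 468, 466 and 489 CPM, a log2 fold change of -1.15 ± 0.37 (unadjusted p = 0.00942, adjusted p = 0.182). In the KO niche it was at 306, 216 and 115 CPM in treated libraries, against 159 and 200 CPM in vehicle ones, with overlap and a log2 fold change of 0.24 ± 0.41. The difference between the 2 effects was 1.39 ± 0.55 (unadjusted p = 0.0285, adjusted p = 0.767). Egr1, another immediate early gene, was at 30.3, 11.03 and 25.2 CPM in WT treated libraries, below all WT vehicle libraries at 47.6, 38.8 and 65.4 CPM, a log2 fold change of -1.19 ± 0.60 (adjusted p = 0.314). In the KO niche its log2 fold change was 0.16 ± 0.67. Over the whole list, 11 members were positive and 8 negative under treatment in the WT niche, with a median of 0.09, the same as over all genes. At an unadjusted edgeR p under 0.05, 3 were higher and 2 lower there, against 18.2% of all genes. The list includes Egr2 and Epha2, which passed the filter on low counts only through treated libraries and had 0 counts in every WT vehicle library. Their direction was thus fixed, and nothing on a shift of the list is read from these counts. For KO over WT in treated hosts, 10 members were positive and 9 negative, with a median of 0.04 (0.10 over all genes). There 1 was lower and 0 higher at an unadjusted p under 0.05 (10.6% of all genes). Egr2, of the same family as Egr1, had 0 counts in all 5 vehicle libraries and 10, 33 and 0 counts in KO treated and 8, 7 and 28 counts in WT treated libraries. Egr2 passed the filter on low counts only through treated libraries, so nothing is read from its direction under treatment.

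Of the 10 other phosphatase genes of the DUSP family, 9 were tested. For KO over WT in treated hosts, 4 of these were positive and 5 negative, with a median of -0.01 (0.10 over all genes). At an unadjusted edgeR p under 0.05, 2 were higher and 0 lower there (10.6% of all genes). These were Dusp7, given below, and Dusp8. Dusp8 had 11, 33 and 219 counts in KO treated libraries, against 8, 0 and 0 counts in WT treated ones. Because Dusp8 passed the filter on low counts only through KO libraries, its direction is no result, though it is part of both counts. Dusp1, an immediate early phosphatase of p38 and JNK as well as ERK, was at 75.9, 66.3 and 66.9 CPM in WT treated libraries, below all WT vehicle libraries at 158, 161 and 79.3 CPM, a log2 fold change of -0.93 ± 0.33 (unadjusted p = 0.0165, adjusted p = 0.200). Dusp10, which acts on p38 and JNK, was at 3.50, 3.83 and 4.39 CPM in WT treated libraries, against 0.646, 0 and 0 CPM in WT vehicle ones (adjusted p = 0.203). Dusp7, the cytoplasmic relative of Dusp6, was at 10.7, 24.4 and 33.6 CPM in KO treated libraries, against 10.6, 10.2 and 7.90 CPM in WT treated ones, a log2 fold change of 1.26 ± 0.54 (unadjusted p = 0.0383, adjusted p = 0.453). All KO treated libraries were above the WT treated ones, but KO treated 257 and WT treated 252 were close. Of the close relatives of the Spred and Etv genes, Spred3 had 53, 27 and 0 counts in KO treated libraries, against 24, 16 and 0 counts in WT treated ones, and 0 and 4 counts in KO vehicle libraries, against 1, 0 and 0 counts in WT vehicle ones. Etv1 had 12, 0 and 16 counts in KO treated, 5, 7 and 0 counts in WT treated, 0 counts in KO vehicle and 4, 0 and 0 counts in WT vehicle libraries. Spred3 and Etv1 also passed the filter on low counts only through treated libraries, so their direction under treatment is no result. All treated libraries were deeper than the vehicle ones, and the part of depth in these low counts was not tested.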

How the data were processed

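Per the labels' protocols, RNA was amplified by SMARTer Ultra Low Input chemistry and tagmented with Nextera XT. The submitters' processing notes name genome build GRCm39 and, with no role or order, STAR 2.7.9a, Trim Galore 0.6.7, HTSeq 0.6.7 as written there, DESeq2 and bcl2fastq. The authors deposited raw read counts per Ensembl gene, whole numbers with no normalization, for 53700 genes and 5 HTSeq summary lines. The summary lines were left out of library sizes and tests. Reads outside genes made up 5.98% (276) to 30.4% (257) of the reads in the table, reads assigned to more than 1 gene 2.34% to 6.31%, and reads at more than 1 place 11.6% to 30.0%. Annotation release and strand setting are not given in the sources used here.

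Ensembl IDs without their version were looked up in a GENCODE mouse annotation on an older build, which named 52093 of the 53700 genes and gave exon lengths for 99.7% of the genes tested. CPM uses TMM-scaled library sizes, and RPKM is CPM per kilobase of exon. Counts were tested in R 4.3.3 with edgeR 4.0.16 (filterByExpr on the 4 groups, TMM, robust quasi-likelihood, 1 fit of all 11 libraries, biological coefficient of variation 0.783), over 6 contrasts of the same 4 groups. A gene passed at a Benjamini-Hochberg adjusted p under 0.05 over all 16639 genes tested. SE is the absolute log2 fold change over the square root of the F statistic, and 95% intervals use its t quantile. The correlations use log2 CPM with a prior count of 2. The search for like-pattern genes covered genes with a mean log2 CPM of at least 3. The pairs among the ERK feedback genes tested had no such cut and include the thinly counted Dusp4 and Spry4. The script was tested on simulated counts.

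The 10 genes and all lists were chosen with earlier results of these data known. From each pathway list the genes named are, per comparison, the 2 with the smallest p, and always Flt3, Kit, Egr1, Fos, Mapk3 and Cic; the text gives a part of these, and 1 item of the rule is not reported here. Like-pattern genes are the 5 with the highest r to the most abundant phosphatase, Sprouty or Spred, and Etv gene. Marker lists for stem, erythroid, megakaryocyte, granulocyte, monocyte, mast, B, T and NK cells and stroma were summed per library. Alternatives were DESeq2 size factors, upper-quartile scaling, no filter, a mean CPM of 10, DESeq2 1.42.0, limma 3.58.1 voom with quality weights, only the libraries compared, a covariate for reads outside genes, removal of the length trend (lowess, span 0.3), leaving out each library and leaving out 253 and 265 together. Counts without Dusp4 and Spry4 were added after seeing the data. Leaving out libraries kept the same 16639 genes. Intervals and the floor of 3 counts cover counting error only, since the reads carry no molecular identifiers.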

Additional observations from a re-analysis of the deposited data

How the results depend on the processing

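Of 1079 re-computed values for the 9 genes, 997 kept their direction and their side of the threshold, 11 kept their direction but had no adjusted p in DESeq2, 67 changed sign and 4 newly passed. Those 4 were Dusp4, Dusp6, Spred1 and Etv5 under limma voom, for KO over WT in treated hosts, of which Dusp4 had passed the low-count filter only through KO libraries. Leaving out 253 and 265 together leaves 1 WT vehicle library. No paired analysis was possible because the labels give the groups no shared replicate numbers.

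The count of genes passing depended on the test. DESeq2 passed 23 (treated over vehicle, KO niche), 1069 (the same, WT niche), 226 (KO over WT, treated), 206 (KO over WT, vehicle), 58 (interaction) and 425 (mean treatment effect). No filter gave 215, 43, 11 and 7 for the WT-niche treatment, both niche comparisons (treated, then vehicle) and the mean effect. The fit on only the libraries compared gave 146 and 19 for the WT-niche treatment and the niche effect in treated hosts. The covariate for reads outside genes gave 2100 and 1517 for the WT-niche treatment and the mean effect. Limma voom gave 4375 for the niche effect in treated hosts and 1 for the mean effect. With 1 library left out, the counts ran from 0 to 1003 (WT-niche treatment; 1003 without KO treated 257, 190 without WT vehicle 240), 0 to 1504 (niche, treated; without 257), 0 to 49 and 0 to 1 (niche, vehicle, and interaction; both without 240). The cause was not tested. Upper-quartile scaling set the median log2 fold change of all genes at 0.32 for the WT-niche treatment (0.09 with TMM), 0.31 for the mean treatment effect (0.16), -0.06 for the niche in treated hosts (0.10) and -0.04 for the interaction (0.11), and changed the sign of none of the 9 genes.

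Signs that changed were, on the log2 scale, as follows. For treatment in the KO niche, Dusp6 was 0.25 with voom and Dusp5 -0.049 with the length trend removed. For treatment in the WT niche, voom gave Spry1 0.81, Spry4 -0.34, Spred2 0.18 and Etv5 0.22, the length trend gave Dusp5 -0.51, and leaving out 253 and 265 gave Dusp5 -0.077, Spry2 0.030, Spred2 2.21 and Etv5 1.50. For the niche in vehicle hosts, voom gave Dusp5 -0.071, Spry2 0.61, Spred2 0.10 and Etv5 1.23, and leaving out 253 and 265 gave Spry2 0.94, Spred2 1.82 and Etv5 2.16. For the interaction, Dusp5 was 0.034 with DESeq2 size factors and with DESeq2, 0.028 with a mean CPM of 10, 0.61 with voom, 0.46 with the length trend removed and 0.16 without 253 and 265. Voom gave Spry2 -0.18 there, and leaving out 253 and 265 gave Spry1 0.23, Spry2 -0.72 and Spred2 -0.95. For the mean treatment effect, Spry1 was 0.19 with voom, Spred1 -0.053 with the covariate and -0.24 without 253 and 265, and Dusp5 -0.28 with the length trend removed.

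With 1 library left out, the signs that changed lay in these ranges, each end with the library left out in brackets. For treatment in the KO niche, the range was Dusp5 from -0.59 (275) to 1.40 (249) and Dusp6 from -0.59 (263) to 0.20 (257). For treatment in the WT niche, the range was Dusp5 from -0.31 (253) to 0.59 (265), Etv5 from -1.63 (253) to 2.40 (265), Spred1 from -1.23 (253) to 0.0065 (240), Spry1 from -0.93 (265) to 0.56 (240) and Spry2 from -1.79 (253) to 0.96 (265). For the niche in treated hosts, the range was Spry4 from -2.82 (257) to 2.55 (252). For the niche in vehicle hosts, the range was Dusp4 from -3.69 (275) to 5.54 (240), Dusp5 from -0.98 (249) to 1.02 (275), Etv5 from -0.97 (253) to 3.05 (265) and Spry2 from -0.88 (253) to 1.87 (265). For the interaction, the range was Dusp4 from -2.65 (240) to 6.48 (275), Dusp5 from -0.76 (275) to 1.24 (249), Dusp6 from -0.038 (253) to 1.02 (265), Etv5 from -0.81 (265) to 3.26 (253) and Spry2 from -1.65 (265) to 1.14 (253). For the mean treatment effect, the range was Dusp5 from -0.22 (275) to 0.78 (249), Spred1 from -0.17 (253) to 0.45 (240), Spred2 from -0.10 (252) to 0.51 (253) and Spry2 from -1.22 (253) to 0.14 (265).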

Other observations

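The other marker lists were summed per library in the same way. Genes of stem and early progenitor cells (15 genes) summed to 872 to 1687 CPM in KO treated, 1148 to 1775 CPM in WT treated, 852 to 1312 CPM in KO vehicle and 556 to 1627 CPM in WT vehicle libraries. Monocyte genes (11) summed to 2255 to 5104 CPM in KO treated libraries, below 6369 to 18404 CPM in all WT treated ones, and to 3248 and 9899 CPM in KO vehicle libraries, against 4778 to 11542 CPM in WT vehicle ones. Granulocyte genes (15) summed to 11138 to 35409 CPM in KO treated, 31805 to 166996 CPM in WT treated, 40598 and 64484 CPM in KO vehicle and 39771 to 104468 CPM in WT vehicle libraries. Megakaryocyte genes (12) summed to 748 CPM in KO vehicle 275 and to at most 148 CPM in the other 10 libraries. Mast cell genes (9) summed to 98.8 to 373 CPM, B cell genes (9) to 29.6 to 157 CPM, T and NK cell genes (11) to 343 to 1789 CPM and stromal genes (12) to 70.9 to 303 CPM over the 11 libraries. The part of these cells in the values of the ERK feedback genes was not tested.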
